A study of Homo sapiens with 6 samples.

Results

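The genes that make cholesterol and sense its level were followed in HAP1 cells without DEGS1. There are 27 of them among the 35238 gene symbols of the count table, chosen by symbol for their place in the pathway, with earlier results of these data known: 19 enzymes that carry acetyl-CoA to cholesterol or to its isoprenoid side products, 5 genes of the sterol-sensing transcription system, and 3 genes of sterol transport. All 27 passed the filter on low counts. HAP1 is an established, near-haploid human cell line that grows attached to the dish and derives from a chronic myeloid leukaemia line. There were 3 libraries of untreated DEGS1 knockout cells and 3 of their untreated wildtype counterpart, grown alike in medium with 5% serum and taken 24 h after passage. DEGS1 encodes the desaturase that turns dihydroceramide into ceramide. The labels do not say how the knockout was made, how many clones it comprises or whether replicates were separate cultures. The study set out to find the cellular effects of losing DEGS1, and its 2 genotypes are compared here.

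Cholesterol is built from acetyl-CoA by way of mevalonate, farnesyl diphosphate, squalene and lanosterol. The genes of this route are switched on together by the transcription factors SREBP1 and SREBP2, which are made as membrane precursors in the endoplasmic reticulum. When membrane cholesterol is low, SCAP escorts the precursors to the Golgi, where they are cut and released to the nucleus; when it is high, INSIG proteins hold SCAP back, so transcripts of this route serve as a readout of the sterol level that the cell senses. Ceramide is the precursor of sphingomyelin, a lipid that binds cholesterol in the plasma membrane.

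DEGS1 fell in the knockout (log2 fold change, here called the log2 ratio of knockout over wildtype, -3.59, SE 0.17, edgeR adjusted p = 3.07e-07). It stood at 9.49, 6.88 and 10.4 CPM (read counts scaled to library depth) in the knockout libraries, against 105, 123 and 95.5 CPM in the wildtype libraries. Totals ran from 19389644 to 27659835 counts in the knockout and from 17322756 to 28988522 in wildtype, and each of the 27 genes had at least 274 counts in every library. Wildtype replicate 2 stood apart within its genotype: the chi-square per degree of freedom between its counts and those of wildtype replicates 1 and 3 was 33.8 and 52.6, against 12.6 between replicates 1 and 3 and 14.5 to 31.3 between knockout libraries, values that also grow with depth. Without it 22.1% of all genes were called, against 2.2% to 3.61% without any 1 of the other 5 libraries. Same-numbered libraries of both genotypes carry the same code in the labels, which do not say what it stands for. Of the 9 blood cell markers listed for this leukaemia-derived line, 4 passed the filter, CD3E and HBB had no count in any library, and the summed level was 9.64 to 11.7 CPM in the knockout and 7.35 to 15 CPM in wildtype.

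None of the 27 genes passed edgeR's quasi-likelihood test at a Benjamini-Hochberg adjusted p under 0.05, a mark that 4.46% of the 16954 genes tested reached (1.51% higher and 2.95% lower in the knockout). The DESeq2 Wald test also called 0 of them (5.89% of all genes) and limma voom 0 (4.03% of all genes). At an unadjusted p under 0.05 edgeR had 1 of the 27, SREBF2, against 16.5% of all genes. The knockout and wildtype libraries did not overlap in 2 of the 27, SREBF2 and FDFT1, against 20.8% of all genes. The median log2 ratio was 0.06 over the 27 genes, with 18 positive and 9 negative values, and -0.02 over all genes tested. Scaled to library size only, which put the median of all genes at -0.07, 14 of the 27 were positive. The median size of the change, sign aside, was 0.09 on the log2 scale over the 27 genes and 0.15 over the 10035 genes at 10 CPM or more.

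A missed threshold does not show that the levels were alike, so the intervals matter here. For 24 of the 27 genes (88.9%) the 95% interval of the fold change lay inside 1.5-fold in either direction, as it did for 77.2% of the genes at 10 CPM or more. The exceptions were MVD, SREBF1 and SREBF2, and all 3 reached past 1.5-fold on the lower side only. No enzyme's interval reached a level 1.5-fold higher in the knockout; the highest upper bound among the 19 was 1.43-fold, for FDFT1 and SC5D. The lowest lower bounds were 0.637-fold for MVD and 0.679-fold for PMVK. In bulk RNA a change in the share of cells that express a gene and a change in the amount per cell cannot be told apart.

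**Figure D1:**
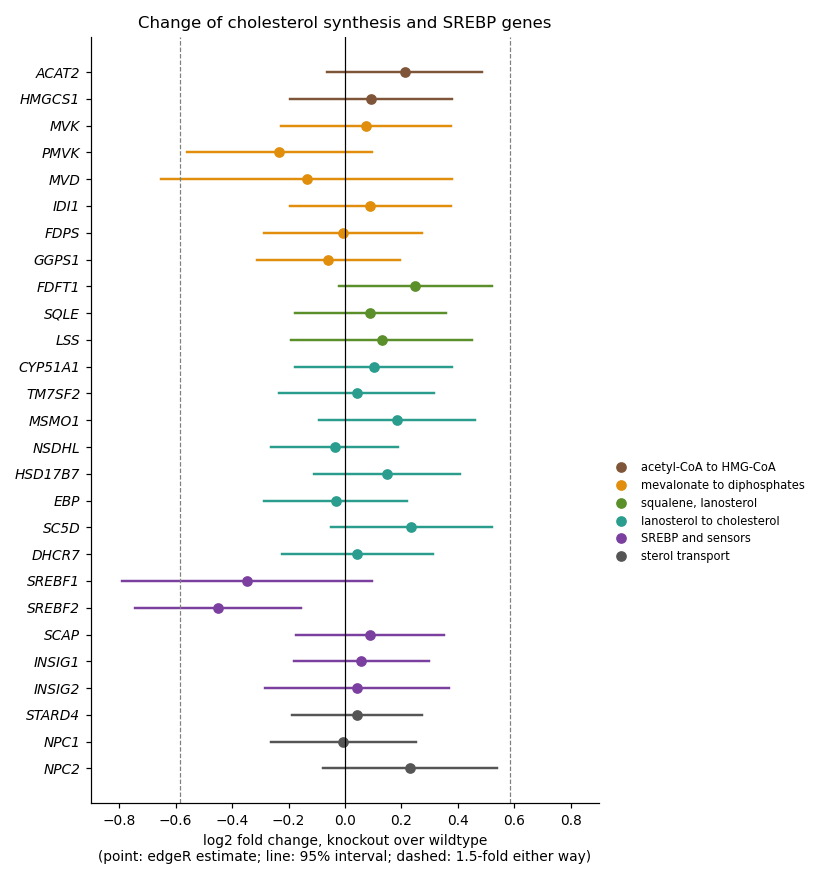
Log2 ratio, knockout over wildtype, of the 27 genes in pathway order, coloured by role, with points for the edgeR estimate, lines for the 95% interval and dashed lines at 1.5-fold either way. The interval of SREBF2 (-0.74 to -0.16) is the only one of the 27 that does not cross 0, and its adjusted p was 0.0935.

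SREBF2, which encodes the SREBP that acts chiefly on cholesterol synthesis, came nearest to the threshold. It stood at 97.4, 81.4 and 91.3 CPM in the knockout libraries, against 131, 101 and 137 CPM in the wildtype libraries. Every knockout library lay below every wildtype library, with wildtype replicate 2 close to knockout replicate 1. The log2 ratio was -0.45 (SE 0.13, n = 3 each), or 0.732-fold with a 95% interval of 0.597 to 0.897, and its edgeR adjusted p of 0.0935 did not pass. The DESeq2 Wald test gave an adjusted p of 0.0523 and limma voom one of 0.112.

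Whether SREBF2 passed depended on the fit. With the replicate number as a block it passed with all 6 libraries (log2 ratio -0.44, edgeR adjusted p = 0.0218), in a fit that called 6.38% of all genes. Without wildtype replicate 2 its log2 ratio was -0.57 and passed (edgeR adjusted p = 0.00152), in a fit that called 22.1% of all genes. Without any 1 of the other 5 libraries it ran from -0.36 to -0.49 and did not pass. SREBF2 lies on chromosome 22, whose median shift was -0.10 (log2, knockout minus wildtype). The chromosome 22 medians overlapped between genotypes, at 0.048, -0.188 and -0.007 in the knockout libraries and 0.091, -0.049 and 0.118 in wildtype. Once chromosome medians were removed the log2 ratio of SREBF2 was -0.34 (edgeR adjusted p = 0.123).

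SREBF1, which encodes the SREBP1 isoforms, stood at 55.0, 33.2 and 45.2 CPM in the knockout libraries, against 60.1, 43.3 and 66.3 CPM in wildtype. The groups overlapped, and replicate 2 was the lowest library in both genotypes. Its log2 ratio was -0.35 (SE 0.20, edgeR adjusted p = 0.431), with a 95% interval of 0.578-fold to 1.07-fold. Without knockout replicate 2 it was -0.17 (edgeR adjusted p = 0.732), and over all fits that left out 1 library it ran from -0.51 to -0.17.

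The sensors of the system differed little between genotypes. SCAP, the escort protein, stood at 76.8, 60.5 and 62.6 CPM in the knockout and 64.3, 57.1 and 66.5 CPM in wildtype. INSIG1, a retention factor that is itself a target of SREBP, stood at 104, 89.5 and 103 CPM in the knockout and 99.3, 96.1 and 88.6 CPM in wildtype. INSIG2, the second retention factor, stood at 14.1, 19.3 and 15.7 CPM in the knockout and 15.7, 17 and 15 CPM in wildtype. The groups overlapped in all 3 of these genes. Their log2 ratios were 0.09 for SCAP (SE 0.12), 0.06 for INSIG1 (SE 0.11) and 0.04 for INSIG2 (SE 0.15), with edgeR adjusted p of 0.758, 0.827 and 0.911. For INSIG1 the 95% interval was 0.883-fold to 1.23-fold.

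The stretch just upstream of the gene start is shown for the 3 genes with the smallest p among those with a listed promoter window, SREBF2, SC5D and SREBF1, and for INSIG1 and HMGCS1 as classical targets of SREBP. Each is the 250 bases before the start, 5′ to 3′ on the gene's strand, from RefSeq on GRCh38.p14. Capitals mark a core of the sterol regulatory element (TCACNCCAC), an NF-Y box (CCAAT) or an E-box (CACGTG), each searched on both strands; no match in these stretches overlaps another. SC5D and HMGCS1 have 2 windows each, of which the first is shown.
SREBF2, chr22:41832855-41833104, plus strand: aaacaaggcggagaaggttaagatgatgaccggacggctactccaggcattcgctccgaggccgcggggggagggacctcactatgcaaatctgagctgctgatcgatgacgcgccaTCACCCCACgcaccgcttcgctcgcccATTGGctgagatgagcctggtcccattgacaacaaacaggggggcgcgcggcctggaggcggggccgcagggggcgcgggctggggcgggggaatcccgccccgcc
SC5D, chr11:121292521-121292770, plus strand: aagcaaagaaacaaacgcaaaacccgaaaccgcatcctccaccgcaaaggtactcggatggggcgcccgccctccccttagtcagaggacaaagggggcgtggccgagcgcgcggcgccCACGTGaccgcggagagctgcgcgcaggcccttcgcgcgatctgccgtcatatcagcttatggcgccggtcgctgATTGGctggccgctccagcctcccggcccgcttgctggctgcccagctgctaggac
SREBF1, chr17:17836987-17837236, minus strand: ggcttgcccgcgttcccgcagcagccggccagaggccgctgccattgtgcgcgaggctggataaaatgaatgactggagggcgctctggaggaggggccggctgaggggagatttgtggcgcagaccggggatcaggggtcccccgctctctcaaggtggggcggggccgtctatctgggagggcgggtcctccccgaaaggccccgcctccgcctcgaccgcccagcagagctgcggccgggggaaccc
INSIG1, chr7:155297628-155297877, plus strand: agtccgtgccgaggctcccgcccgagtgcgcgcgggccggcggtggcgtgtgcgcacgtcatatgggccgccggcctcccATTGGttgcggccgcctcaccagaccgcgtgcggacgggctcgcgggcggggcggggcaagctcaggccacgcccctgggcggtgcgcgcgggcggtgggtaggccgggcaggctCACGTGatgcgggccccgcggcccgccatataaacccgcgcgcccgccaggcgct
HMGCS1, chr5:43313413-43313662, minus strand: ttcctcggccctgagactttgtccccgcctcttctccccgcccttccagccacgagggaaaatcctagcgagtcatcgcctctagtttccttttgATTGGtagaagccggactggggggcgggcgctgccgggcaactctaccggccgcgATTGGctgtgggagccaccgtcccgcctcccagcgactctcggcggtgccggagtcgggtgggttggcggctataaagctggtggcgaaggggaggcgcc
The stretch of SREBF2 holds a sterol element core 133 bases before the start and an NF-Y box 106 bases before it.

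Windows of 300 bases (250 before and 50 after the start) were listed for 24 of the 27 genes, 33 windows in all, since some genes have several starts. The sterol element core was found in 1 of the 33, that of SREBF2, against 1.13% of the 35116 windows of all genes. Only the string TCACNCCAC was searched, so a window without a match may still hold a sterol element of other letters. The NF-Y box, bound by a factor that works beside SREBP at sterol promoters, was found in 20 of the 33 windows and in 34.6% of all windows. The E-box was found in 5 of the 33 and in 7.26% of all windows. Windows of the same gene can overlap and share a motif. Counted by gene, 18 of the 24 held an NF-Y box and 4 of the 24 an E-box. The printed stretch of SREBF1 held none of the 3 motifs, INSIG1 and SC5D each held an NF-Y box and an E-box, and HMGCS1 held NF-Y boxes at 155 and 100 bases before the start. These matches describe letters in 1 window each and say nothing of binding.

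At the head of the route, ACAT2, here the cytosolic thiolase that joins acetyl-CoA units, averaged 180 ± 6.73 CPM in the knockout and 155 ± 20.3 CPM in wildtype (SD, n = 3 each). Its log2 ratio was 0.21 (SE 0.13, edgeR adjusted p = 0.441). HMGCS1, which makes HMG-CoA, stood at 435, 364 and 385 CPM in the knockout and 374, 396 and 341 CPM in wildtype. Its libraries overlapped, and its 95% interval ran from 0.873-fold to 1.30-fold around a log2 ratio of 0.09 (SE 0.13).

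The 6 enzymes from mevalonate to the isoprenoid diphosphates had 2 positive and 4 negative log2 ratios, with a median of -0.03. MVK and PMVK, the kinases that phosphorylate mevalonate in turn, had 0.08 (SE 0.14) and -0.23 (SE 0.15). MVD, which decarboxylates the product to isopentenyl diphosphate, had -0.14 with the widest error of the enzymes (SE 0.23): its knockout libraries stood at 37.6, 18.6 and 23.9 CPM, against 33.1, 25.2 and 29.5 CPM in wildtype, so that the knockout values spanned the whole wildtype range. MVD lies on chromosome 16, whose median shift was -0.16, and once chromosome medians were removed the log2 ratio was 0.02. IDI1, the isomerase of isopentenyl diphosphate, averaged 208 ± 6.30 CPM in the knockout and 195 ± 27.7 CPM in wildtype (SD, n = 3 each). FDPS, which makes farnesyl diphosphate, averaged 250 ± 15.2 CPM in the knockout and 251 ± 27.5 CPM in wildtype. GGPS1, which makes the geranylgeranyl diphosphate used to prenylate proteins, averaged 35.2 ± 1.65 CPM in the knockout and 36.7 ± 4.32 CPM in wildtype.

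At the branch to sterols, FDFT1, the squalene synthase, stood at 308, 279 and 316 CPM in the knockout and 249, 275 and 236 CPM in wildtype. Its groups did not overlap, though the lowest knockout and the highest wildtype library lay close together, and its log2 ratio of 0.25 (SE 0.12, edgeR adjusted p = 0.350) did not pass. These library values are given after FDFT1 was seen to separate. SQLE, the squalene epoxidase, a control point of the pathway, stood at 205, 183 and 169 CPM in the knockout and 175, 186 and 163 CPM in wildtype, a log2 ratio of 0.09 (SE 0.12) with overlapping groups. LSS, which closes the rings to give lanosterol, averaged 178 ± 25.5 CPM in the knockout and 163 ± 23.6 CPM in wildtype (SD, n = 3 each).

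The 8 enzymes from lanosterol to cholesterol had 6 positive and 2 negative log2 ratios, from -0.04 to 0.23. CYP51A1, which removes a methyl group from lanosterol, averaged 288 ± 12.7 CPM in the knockout and 268 ± 29.3 CPM in wildtype (SD, n = 3 each). The sterol reductase TM7SF2 averaged 21.2 ± 1.68 CPM in the knockout and 20.6 ± 1.59 CPM in wildtype. MSMO1, NSDHL and HSD17B7, which together remove the remaining methyl groups from the sterol ring, had log2 ratios of 0.18 (SE 0.13), -0.04 (SE 0.10) and 0.15 (SE 0.12). The sterol isomerase EBP averaged 131 ± 2.33 CPM in the knockout and 134 ± 13.8 CPM in wildtype. SC5D, a sterol desaturase, stood at 75.3, 89.8 and 75.6 CPM in the knockout and 64.5, 79.9 and 59.9 CPM in wildtype, with replicate 2 the highest of both genotypes, and its log2 ratio of 0.23 (SE 0.13, edgeR adjusted p = 0.407) did not pass. DHCR7, the reductase of the last step, averaged 86.3 ± 10.2 CPM in the knockout and 83.7 ± 8.55 CPM in wildtype.

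Per kilobase of their longest GENCODE transcript, the enzymes differed widely in level and ran over a like span in both genotypes. FDPS stood at 124 CPM per kilobase in the knockout and 125 in wildtype, HMGCS1 at 113 in the knockout and 106 in wildtype, and FDFT1 at 113 in the knockout and 95.2 in wildtype. MVK was the lowest enzyme on this scale, at 8 CPM per kilobase in the knockout and 7.58 in wildtype. The rank depends on the transcript length used. Before that division PMVK was lower, at 17.3 CPM in the knockout and 20.3 CPM in wildtype, against 32.9 and 31.1 CPM for MVK. Summed over the 19 enzymes, the level was 2833, 2539 and 2640 CPM in the knockout libraries and 2504, 2674 and 2283 CPM in the wildtype libraries, which overlap.

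**Figure D2:**
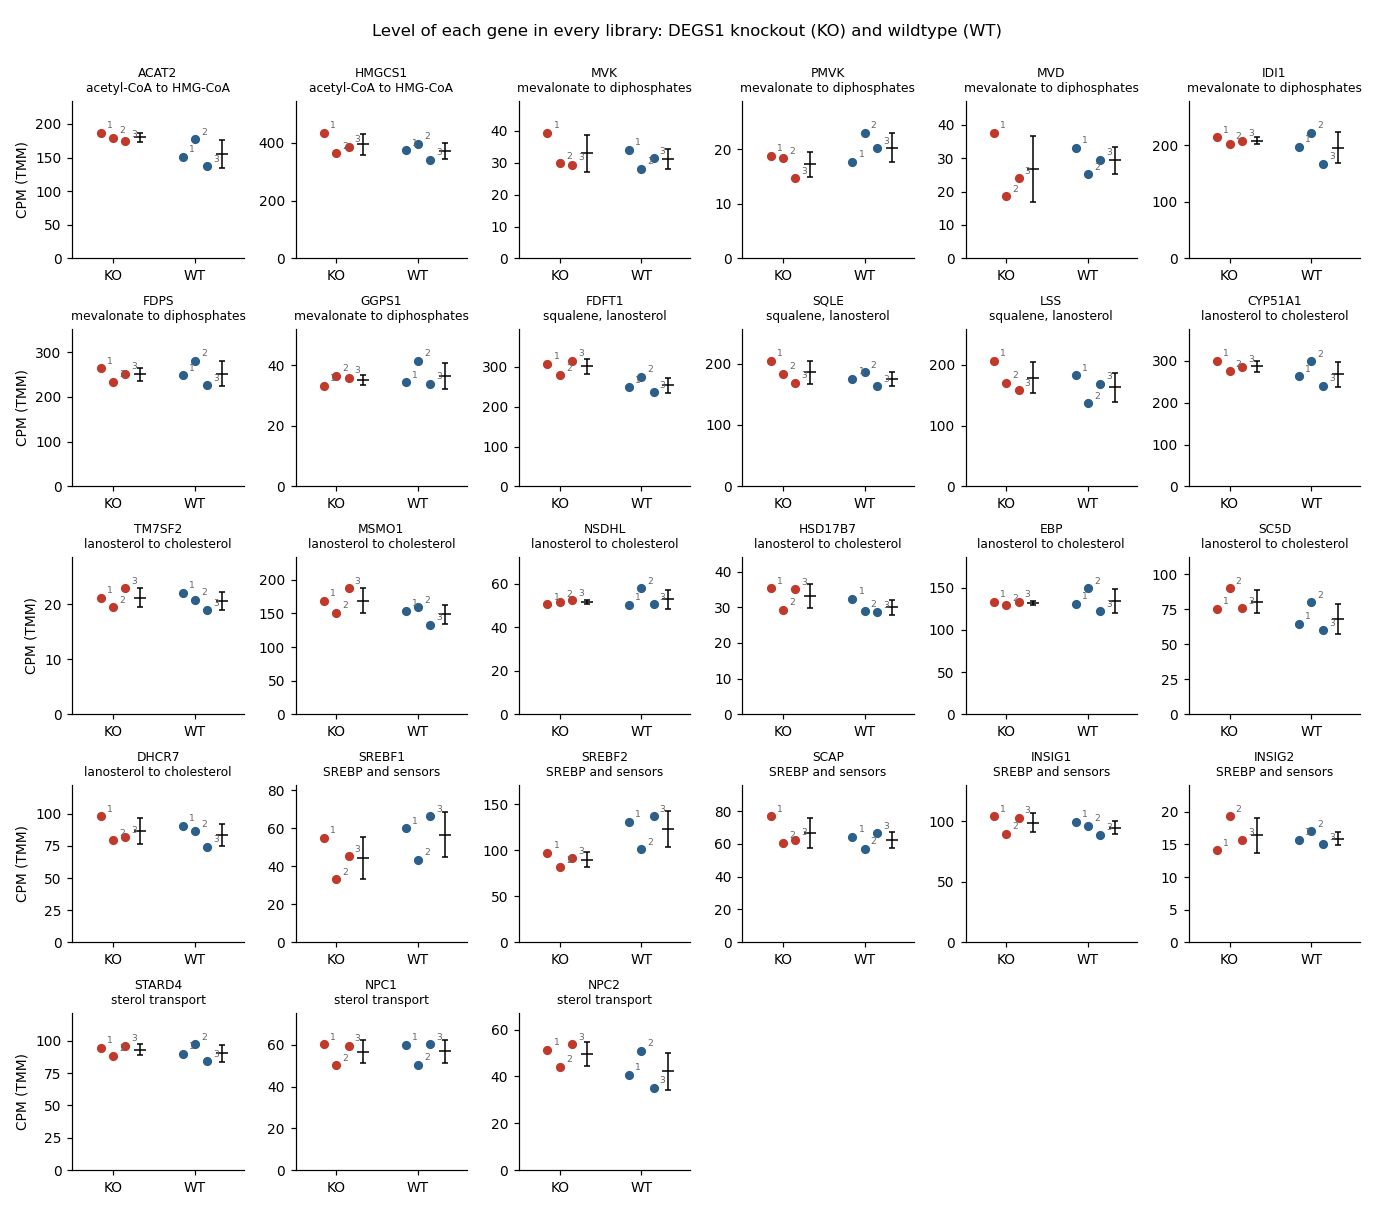
CPM on TMM-scaled library sizes in each library for the 27 genes, knockout (KO, red) left of wildtype (WT, blue), with replicate numbers beside the points and the mean ± SD in black (n = 3 each); each panel has its own axis from 0. In SREBF2 the red points (81.4 to 97.4 CPM) lie below all blue points (101 to 137 CPM), and in 25 of the 27 panels the groups overlap.

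Of the 3 genes of sterol transport, NPC2 had the highest knockout level relative to wildtype. STARD4, a soluble carrier that moves sterol between membranes, averaged 93.1 ± 4.11 CPM in the knockout and 90.3 ± 6.51 CPM in wildtype (SD, n = 3 each). NPC1, the membrane protein that lets cholesterol out of the lysosome, stood at 60.1, 50.2 and 59.4 CPM in the knockout and 59.9, 50.3 and 60.2 CPM in wildtype. Its log2 ratio was -0.01 (SE 0.12), with a 95% interval of 0.834-fold to 1.19-fold. NPC2, the soluble lysosomal protein that hands cholesterol to NPC1, averaged 49.7 ± 5.04 CPM in the knockout and 42.3 ± 7.94 CPM in wildtype, a log2 ratio of 0.23 (SE 0.14, edgeR adjusted p = 0.454). NPC2 lies on chromosome 14, whose median shift was -0.19, and once chromosome medians were removed the log2 ratio was 0.42 (edgeR adjusted p = 0.122).

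The offset of wildtype replicate 2 was related in part to the base composition of the transcripts. This relation was not computed for any other library, knockout replicate 2 included. In wildtype replicate 2, the log2 level minus the mean of the other 2 wildtype libraries ran from -0.55 for SREBF1 to 0.42 for NPC2. Across the 27 genes this difference had a Pearson r of -0.58 and a Spearman rho of -0.50 with GC content, a description over genes that share the same libraries. Over 9932 genes at 10 CPM or more the same r was -0.33. The genes well below the other wildtype libraries included SREBF1 (62.8% GC, -0.55), SREBF2 (57.1% GC, -0.40) and LSS (58.3% GC, -0.36), and those well above included SC5D (38.6% GC, 0.36). Other genes went against the slope, among them PMVK (59.5% GC, 0.29) and FDPS (56.0% GC, 0.25) above and HSD17B7 (41.7% GC, -0.07) slightly below.

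**Figure D3:**
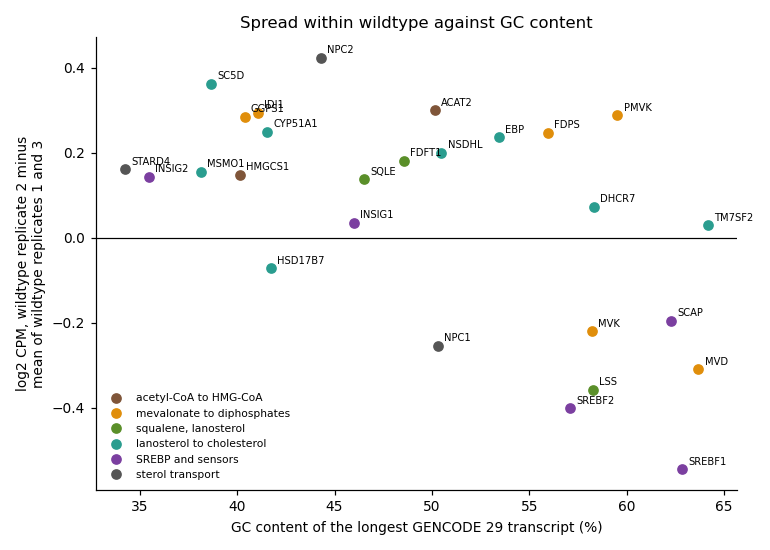
GC content of each gene's longest transcript (horizontal axis, %) against the log2 level in wildtype replicate 2 minus the mean of wildtype replicates 1 and 3 (vertical axis), coloured by role. Points slope downwards (Pearson r -0.58, 27 genes), with SREBF1 and SREBF2 at the bottom right and SC5D at the top left.

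When the dependence of each library on GC content and transcript length was taken out, an alternative added once the data had been seen, the libraries of the SREBP genes drew together within each genotype. SREBF2 then stood at 91.7, 87.4 and 94.9 CPM in the knockout and 122, 113 and 125 CPM in wildtype. Its log2 ratio was -0.40 and passed (edgeR adjusted p = 0.0275), the only 1 of the 27 to do so where 5.69% of all genes were called. SREBF1 then stood at 47.8, 38.1 and 46.1 CPM in the knockout and 56.2, 52.1 and 58.0 CPM in wildtype. Its log2 ratio was -0.33 and did not pass (edgeR adjusted p = 0.0981). The groups of SREBF1 no longer overlapped, which also held for GGPS1, NSDHL, EBP and SC5D. The share of all genes without overlap was not computed under this alternative. These separations therefore cannot be read as a result about the 27 genes.

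The outcome for 4 further genes depended on wildtype replicate 2. Without it, ACAT2 (log2 ratio 0.32, edgeR adjusted p = 0.025), FDFT1 (0.32, 0.0332), SC5D (0.37, 0.0215) and NPC2 (0.39, 0.0261) were higher in the knockout and passed, so that 5 of 27 genes were called where 22.1% of all genes were. HMGCS1, SQLE, INSIG1 and NPC1 did not pass in that fit, with log2 ratios of 0.15, 0.14, 0.07 and -0.08.

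**Figure D4:**
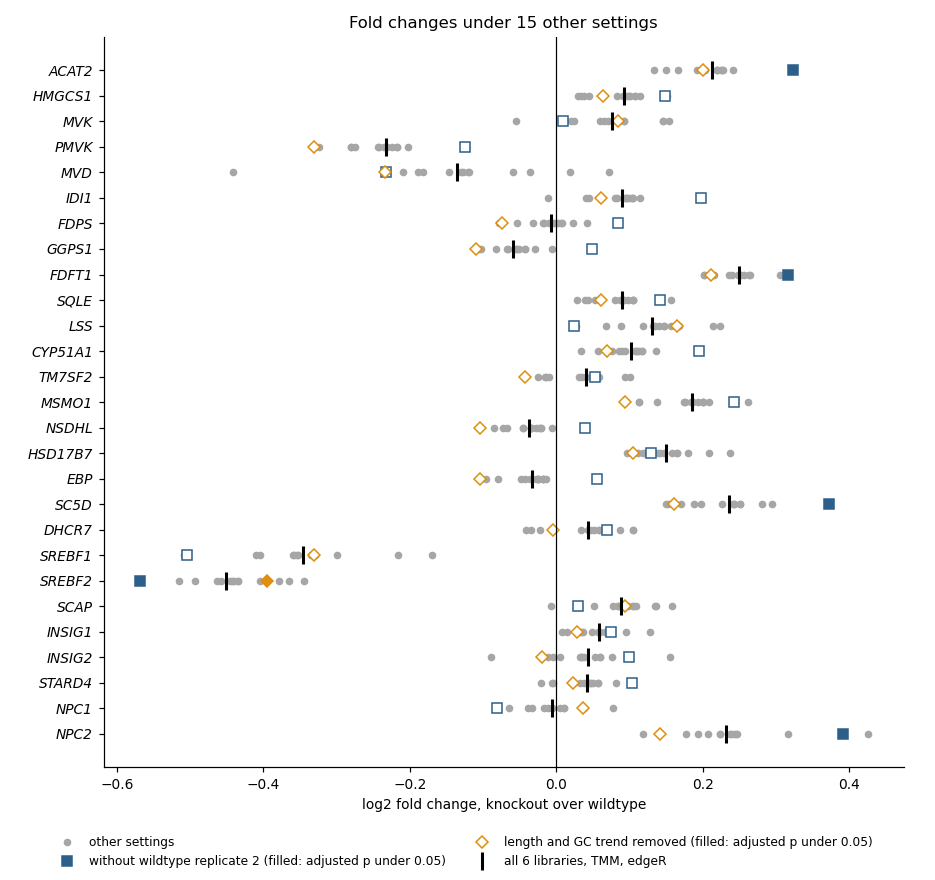
Log2 ratio, knockout over wildtype, of each gene in the fit of all 6 libraries (black bar), without wildtype replicate 2 (blue squares), with the length and GC trend removed (orange diamonds) and under 13 other settings (grey), filled squares and diamonds having an adjusted p under 0.05. SREBF2 stays between -0.57 and -0.34 throughout, and the filled squares are those of ACAT2, FDFT1, SC5D, SREBF2 and NPC2.

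Genes around the sterol route gave 1 call. Of the 15 genes of sterol transport and esterification beyond the 27, VLDLR, a lipoprotein receptor, rose, and the others did not pass, which makes 1 of 15 against 4.46% of all genes. At an unadjusted p under 0.05 there were 7 of these 15, against 16.5% of all genes, and in 7 of 15 the groups did not overlap, against 20.8% of all genes. VLDLR stood at 56.6, 57.0 and 49.8 CPM in the knockout and 44.2, 36.0 and 37.6 CPM in wildtype, a log2 ratio of 0.47 (SE 0.12, edgeR adjusted p = 0.0402). VLDLR lost its call in 6 of 15 alternatives: every fit without 1 knockout library (edgeR adjusted p = 0.14, 0.117 and 0.0845 without replicates 1, 2 and 3), the fit without wildtype replicate 3 (0.103), library size only (0.119) and limma voom (0.0506). The DESeq2 Wald test called 3 of these 15 genes, VLDLR, GRAMD1B and OSBPL9, all higher in the knockout, against 5.89% of all genes, and limma voom called 0 (4.03% of all genes). The median log2 ratio of these 15 genes was 0.18.

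None of the 16 genes of SREBP processing and sterol-regulated degradation was called by edgeR, and the median log2 ratio was 0.13. Of the 16, 4 reached an unadjusted p under 0.05, against 16.5% of all genes, a share that also stands behind the bracketed counts of the next 4 lists. The groups did not overlap in 6 of the 16, against 20.8% of all genes, and in 2, 1, 1 and 4 genes of those 4 lists in turn. FBXW7, the ubiquitin ligase subunit that marks nuclear SREBP for breakdown, had the smallest p of the 16, with a log2 ratio of 0.28 (SE 0.10, edgeR adjusted p = 0.180). None of the 14 tested of 15 listed SREBP targets of fatty acid synthesis passed (1 at an unadjusted p under 0.05; median 0.06), nor any of 8 other sterol-responsive genes (2; median -0.04), 5 genes of the LXR arm, which answers to high sterol (1; median -0.03), or 15 genes of the non-sterol isoprenoid branch (2; median 0.02). The smallest p in these 4 lists belonged to ME1, which makes NADPH (log2 ratio 0.32, SE 0.15), ALDOC (-0.45, SE 0.17), NR1H2, an LXR receptor (0.48, SE 0.14), and RABGGTA, a subunit of a prenyltransferase (-0.42, SE 0.16). Without wildtype replicate 2, where 22.1% of all genes were called, FBXW7 (log2 ratio 0.32, edgeR adjusted p = 0.0299), ME1 (0.52, 0.00191), NR1H2 (0.48, 0.0323) and RABGGTA (-0.50, 0.0344) passed. ALDOC did not pass in that fit (log2 ratio -0.47, edgeR adjusted p = 0.0704). These genes were picked for their smallest p in the same data, so their calls cannot be set against the share of all genes. RABGGTA lies on chromosome 14, and its log2 ratio was -0.24 with chromosome medians removed (edgeR adjusted p = 0.537). The DESeq2 Wald test and limma voom also called 0 genes in each of these 5 lists.

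**Figure D5:**
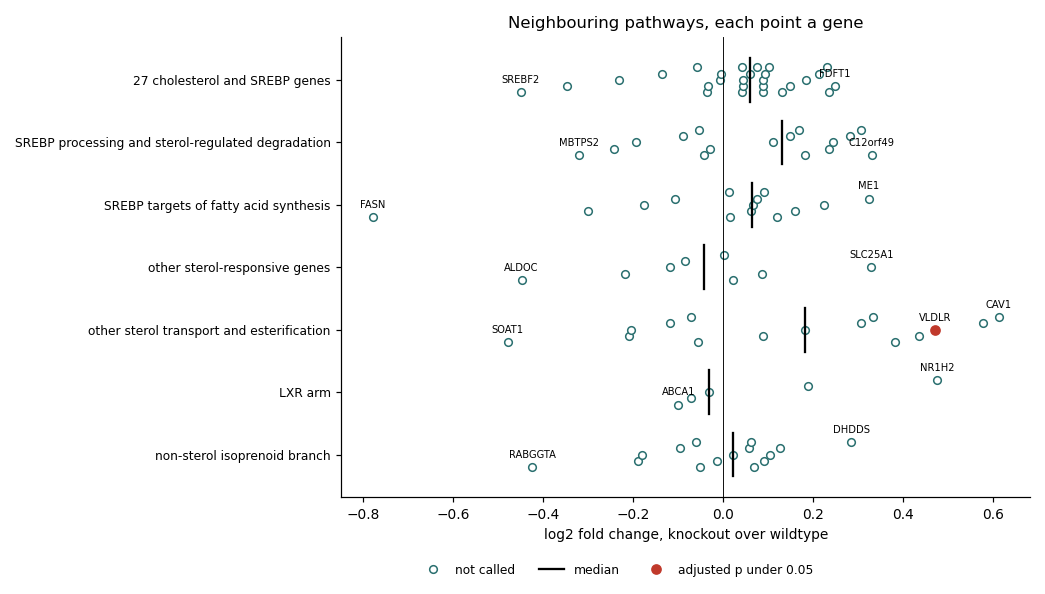
Log2 ratio, knockout over wildtype, of each tested gene in the 27 cholesterol and SREBP genes and in 6 lists around them, with the median of each list as a black bar and the genes farthest out named. VLDLR (0.47) is the only filled point, the only gene of these lists with an edgeR adjusted p under 0.05.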

How the data were processed

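RNA of untreated HAP1 cells was sequenced from 1 ug of total RNA with a stranded kit as single reads of 75 nt, per the labels' protocols. The authors deposited whole-number counts per gene symbol, not normalized. bcl2fastq 2.20 and build hg19 are named, per the submitters' processing notes; aligner, counter, annotation and strand setting were not given in the sources used here. Overlapping genes and near copies are therefore uncertain: pseudogene symbols of CYP51A1, FDPS and HSD17B7 held 0.152%, 0.819% and 2.09% of the gene's own counts.

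Counts were TMM-scaled, filtered and tested with edgeR 4.0.16 in R 4.3.3 (quasi-likelihood F test, robust, genotype alone), with Benjamini-Hochberg adjustment over 16954 genes. The SE follows from the log2 ratio and its F value, and intervals are 95%. The steps were tested on simulated data. Alternatives used DESeq2 1.42.0, limma 3.58.1 voom, other scalings, filters and a threshold of 0.01, a replicate block, removal of chromosome medians, and each library left out. Removal of length and GC trends (splines with 4 degrees of freedom, GENCODE 29, 94.2% of tested genes covered) was added after seeing the data.

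By rule all 27 genes are named, with each library's value for genes with an unadjusted p under 0.05, the SREBP and sensor genes, HMGCS1, SQLE and NPC1; library values of MVD, FDFT1 and SC5D were added after seeing them. Around them, called genes are named, or else the 1 with the smallest p. The members and lists were chosen with earlier results of these data known. The p-values cover the spread between these libraries only, and that spread may be technical; no 2 libraries of a genotype agreed within sampling noise (chi-square per degree of freedom 12.6 to 52.6). Same-numbered libraries share an unexplained code in the labels, and their deviations correlated at 0.26, 0.41 and -0.23. Whether the code marks a batch was not tested. The model held genotype alone, with the replicate block as an alternative.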

Additional observations from a re-analysis of the deposited data

How the results depend on the processing

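Of 405 log2 ratios of the 27 genes under 15 other settings, 360 kept their direction and their side of the threshold, 7 passed where the fit of all libraries did not, and 38 changed sign, all in 13 genes that were called in no setting, of which MVD (-0.14 with all libraries) lay farthest from 0. With all libraries kept, the sign changed with DESeq2 size factors for FDPS (0.0071) and NPC1 (0.011), with the DESeq2 Wald test for the same genes (0.0069 and 0.011), with limma voom for FDPS (0.0019), with no filter for NPC1 (0.0044), and with library size only for TM7SF2 (-0.010), DHCR7 (-0.0064), INSIG2 (-0.012) and STARD4 (-0.0064). With chromosome medians removed it changed for MVD (0.019), FDPS (0.023), TM7SF2 (-0.025), DHCR7 (-0.023), INSIG2 (-0.0042) and STARD4 (-0.021), and with length and GC trends removed for TM7SF2 (-0.043), DHCR7 (-0.0041), INSIG2 (-0.020) and NPC1 (0.036). With each library left out in turn the values ran from -0.055 to 0.15 for MVK, -0.44 to 0.072 for MVD, -0.011 to 0.20 for IDI1, -0.078 to 0.084 for FDPS, -0.11 to 0.049 for GGPS1, -0.015 to 0.10 for TM7SF2, -0.073 to 0.039 for NSDHL, -0.096 to 0.055 for EBP, -0.041 to 0.10 for DHCR7, -0.0077 to 0.16 for SCAP, -0.089 to 0.16 for INSIG2, -0.0047 to 0.10 for STARD4 and -0.081 to 0.078 for NPC1.

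The number of the 27 genes called was 0 with all libraries and 0 to 5 with 1 left out, the 5 without wildtype replicate 2. It was 1, SREBF2, with length and GC trends removed and 1, SREBF2 again, with the replicate number as a block (log2 ratio -0.44, edgeR adjusted p = 0.0218, 6.38% of all genes called); the block called 1082 genes in all. The same number carries the same code in the labels of both genotypes. Correlations of deviations between same-numbered libraries were 0.26, 0.41 and -0.23. Knockout replicate 2 correlated best with wildtype replicate 2, and knockout replicates 1 and 3 with another number. Over all genes 756 were called, 375 at a threshold of 0.01, and 380 to 3825 with 1 library left out: 424 without knockout replicate 1, 380 without knockout replicate 3, 441 without wildtype replicate 1 and 3825 without wildtype replicate 2. The cause of these differences was not tested. With 3 libraries a genotype the median SE of the 27 genes was 0.13 (log2), which limits what could be called.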

Other observations

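Among the genes of sterol transport and esterification beyond the 27, GRAMD1B, which carries cholesterol from the plasma membrane to the endoplasmic reticulum, stood at 23.3, 26.6 and 23.3 CPM in the knockout and 16.9, 13.1 and 19.1 CPM in wildtype. Its groups did not overlap, and its log2 ratio of 0.58 (SE 0.15, edgeR adjusted p = 0.0574) did not pass there but did in the DESeq2 Wald test, as did OSBPL9's. OSBPL9, of the oxysterol-binding protein family, stood at 194, 165 and 196 CPM in the knockout and 129, 151 and 131 CPM in wildtype, with a log2 ratio of 0.43 (SE 0.12, edgeR adjusted p = 0.0821). SOAT1, which esterifies cholesterol for storage, stood at 160, 239 and 177 CPM in the knockout and 242, 322 and 240 CPM in wildtype, with the highest library of the knockout just under the lowest of wildtype, and its log2 ratio was -0.48 (SE 0.17, edgeR adjusted p = 0.179). These 3 genes were chosen after their values were seen.

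FASN, the fatty acid synthase, showed the widest spread of the fatty acid targets within wildtype. It stood at 222, 154 and 174 CPM in the knockout and 350, 138 and 457 CPM in wildtype, so that wildtype replicate 2 lay below every other library, and its log2 ratio was -0.78 (SE 0.42, edgeR adjusted p = 0.422). SCD, the desaturase that makes oleate, stood at 944, 978 and 886 CPM in the knockout and 950, 927 and 900 CPM in wildtype. MMAB, which shares its promoter region with MVK, averaged 33.9 ± 1.58 CPM in the knockout and 33.9 ± 1.68 CPM in wildtype (SD, n = 3 each). FASN, SCD and MMAB were likewise chosen after their values were seen.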
